A study of Homo sapiens with 6 samples.

Results

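The 10 genes described here make up a signalling chain: 4 latent TGF-beta binding proteins (LTBP1, LTBP2, LTBP3 and LTBP4), the ligands TGFB1 and TGFB2, the receptors TGFBR1, TGFBR2 and TGFBR3, and SKIL, an inhibitor of the pathway. They were taken by symbol from a table of 30717 genes, and 93 of its 136953 transcripts belong to them. They were chosen by name, with the levels of these genes in the knockdown libraries and in the 2 lines already known, so their knockdown and line differences are given as a description without a test. All 10 had enough counts to be included in the fit over 20721 genes.

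The libraries came from T24 and UMUC3, established human bladder cancer cell lines, and were made from total RNA. Each line had 2 libraries labelled circPTK2 knockdown, circPTK2 being a circular RNA made from exons of PTK2, and 1 control library. The knockdown libraries are called 1 and 2 after the number of the siRNA in their titles, whereas the series' design text speaks of sh constructs, and no source settles which reagent was used. For T24 alone, the titles and the data columns number the siRNAs in opposite order. Both lines were compared with their own control to learn what the knockdown does to mRNA levels, and the libraries of a line share its genetic background. The labels do not say whether separate cultures were used, and the p-values reflect the spread between these samples alone, which may be technical. The table lists linear transcripts, so circPTK2 itself has no value here and its knockdown was not checked.

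TGF-beta ligands are secreted in a latent complex with their own propeptide. LTBP1, LTBP3 and LTBP4 bind that complex and anchor it in the extracellular matrix on fibrillin and fibronectin, from which integrins and proteases release the active ligand. LTBP2, a matrix protein of the same family, does not bind the latent ligand. Active ligand brings together the kinases TGFBR2 and TGFBR1, which phosphorylate SMAD2 and SMAD3. TGFBR3, also called betaglycan, is a coreceptor without kinase activity that presents ligand, TGFB2 above all, and SKIL (SnoN) is a nuclear repressor that binds SMAD proteins.

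Total counts were 65111683 to 72362436 per library, and 55071837 to 60780176 of them lay in named genes. The knockdown libraries of a line differed by far more than sampling noise (chi-square of 116 per degree of freedom in T24 and 112 in UMUC3), and each was counted as a sample. The summed urothelial and epithelial markers, 13 of 14 listed in the table, stood at 3130 to 3350 CPM in T24 libraries and at 174 to 193 CPM in UMUC3 libraries. The uroplakins UPK1A, UPK1B and UPK2 did not exceed 0.410 CPM in any library, and KRT19 and EPCAM were at or near 0 in UMUC3 alone. Of the keratins of that list, KRT7 had 480 and 708 CPM in T24 knockdown libraries, against 171 CPM in the T24 control, and KRT18 had 425 and 390 CPM in T24 knockdown libraries, against 836 CPM in the T24 control. The summed immune markers, 4 of 6 listed, were 7.53 and 8.38 CPM in T24 knockdown libraries, against 9.34 CPM in the control, and 54.6 and 51.4 CPM in UMUC3 knockdown libraries, against 29.1 CPM in the control. Nearly all of the UMUC3 sum was CD68, and the defining immune marker PTPRC did not exceed 0.0673 CPM in any library. The summed fibroblast and smooth muscle markers, 4 of 7 listed, stood at 3.80 to 4.09 CPM in T24 and at 5.62 to 10.9 CPM in UMUC3. The endothelial marker CDH5 stood at 64.5 to 75.5 CPM in T24 libraries, with no count in UMUC3, while PECAM1 did not exceed 1.02 CPM. The part of these markers in the results was not tested. In 14437 tested genes with several transcripts, the largest share of a gene's counts that moved to another transcript between libraries of a line had a median of 0.218 in T24 and 0.222 in UMUC3, and that share is given below as the transcript shift.

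The start regions of 5 members are shown, picked by name from those whose levels separated knockdown from control libraries or one line from the other. Other members that did so, LTBP3, TGFBR1, TGFBR3 and SKIL among them, are not shown. LTBP1 is shown with a long-form and a short-form stretch because its counts divided between long and short forms. The sequences are from RefSeq on GRCh38.p14, read in the direction of the gene, and each ends at or before the first annotated start of its window. Capitals mark matches on either strand to the GC box GGGCGG, the CCAAT box CCAAT, the cyclic AMP element TGACGTCA, the AP-1 element TGANTCA or the TATA box TATAAA. No marked match overlapped another.
LTBP2, chr14:74612379-74612487, minus strand: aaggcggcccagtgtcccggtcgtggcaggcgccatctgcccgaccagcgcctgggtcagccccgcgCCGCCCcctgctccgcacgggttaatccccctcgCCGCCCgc
LTBP1 long form, chr2:32946703-32946952, plus strand: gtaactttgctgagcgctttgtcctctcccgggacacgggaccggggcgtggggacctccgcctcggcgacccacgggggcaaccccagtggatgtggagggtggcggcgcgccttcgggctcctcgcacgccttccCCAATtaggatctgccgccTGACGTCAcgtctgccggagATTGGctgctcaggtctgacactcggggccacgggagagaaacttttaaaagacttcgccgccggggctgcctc
LTBP1 short form, chr2:33134119-33134368, plus strand: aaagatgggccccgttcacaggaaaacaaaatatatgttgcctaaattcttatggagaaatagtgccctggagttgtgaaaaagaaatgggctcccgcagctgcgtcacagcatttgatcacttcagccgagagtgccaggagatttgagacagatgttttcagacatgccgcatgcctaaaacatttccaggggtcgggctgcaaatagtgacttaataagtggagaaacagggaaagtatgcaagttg
TGFB1, chr19:41353923-41354172, minus strand: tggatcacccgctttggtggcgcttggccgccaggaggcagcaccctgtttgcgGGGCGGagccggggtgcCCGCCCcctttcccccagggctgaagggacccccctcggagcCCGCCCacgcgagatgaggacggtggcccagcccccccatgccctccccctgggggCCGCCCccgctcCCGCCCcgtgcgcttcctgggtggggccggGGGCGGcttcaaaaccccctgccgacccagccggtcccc
TGFB2, chr1:218345086-218345335, plus strand: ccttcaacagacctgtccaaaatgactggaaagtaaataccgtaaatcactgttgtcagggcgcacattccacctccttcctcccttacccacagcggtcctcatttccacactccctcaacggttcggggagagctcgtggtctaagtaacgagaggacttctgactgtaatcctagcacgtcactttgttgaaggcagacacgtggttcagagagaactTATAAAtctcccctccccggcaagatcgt
TGFBR2, chr3:30606106-30606355, plus strand: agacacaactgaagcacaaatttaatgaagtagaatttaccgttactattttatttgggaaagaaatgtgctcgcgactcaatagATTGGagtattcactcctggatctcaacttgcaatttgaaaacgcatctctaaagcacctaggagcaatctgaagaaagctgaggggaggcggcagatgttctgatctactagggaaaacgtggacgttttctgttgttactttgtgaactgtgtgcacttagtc

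The LTBP2 stretch, of 109 bases, held 2 GC boxes, and the TGFB1 stretch held 6, with no TATA box in either. The long-form LTBP1 stretch had a cyclic AMP element between a pair of CCAAT boxes, whereas the shown short-form stretch had none of the 5 marked motifs. The counted short forms of LTBP1 start downstream of that stretch, from 33134597 to 33134657. Another LTBP1 window, chr2:33134346-33134645, which is not shown, also held none of the 5 marked motifs. TGFB2 had a TATA box 29 bases before its RefSeq start, and the shown TGFBR2 stretch had a single CCAAT box. The coding TGFB2 transcripts in the table start downstream of that RefSeq start, at 218346235. The counted TGFBR2 transcripts start downstream of the shown stretch, at 30606502 and 30606601. A further TGFBR2 window, chr3:30606351-30606650, held 2 GC boxes, 1 CCAAT box and 1 AP-1 element. In windows of 300 bases (250 before and 50 after each start), GC boxes occurred in 13 of 22 windows of the 10 members, against 45.0% of 35116 windows of all genes, and CCAAT boxes in 8 of 22 (36.4%), against 34.6%. The cyclic AMP element was found in 2 member windows, those of LTBP1 and SKIL, against 1.85% of all windows, and the TATA box in that of TGFB2, against 11.5%. AP-1 elements were found in 1 member window, a second TGFBR2 start, against 7.71% of all windows, and the SMAD element CAGAC, which is not marked above, in 12 of 22, against 45.3%. A match is a description of letters and not a bound site.

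In T24 all 10 members stood above the control in both knockdown libraries, a pattern that 34.7% of all tested genes shared, and none stood below it in both, as 37.3% of all genes did. The median log2 fold change of the members was 0.74 in T24, beside 0.00 over all genes to 2 decimals. In UMUC3 the members divided: LTBP1, LTBP3, LTBP4 and TGFB1 stood above the control in both knockdown libraries (4 of 10, against 35.6% of all genes), and LTBP2, TGFBR2, TGFBR3 and SKIL below it in both (4 of 10, against 37.1%). LTBP1, LTBP3, LTBP4 and TGFB1 were above their own control in all 4 knockdown libraries, as 13.3% of all genes were. For LTBP3 and LTBP4 the margin was slight in UMUC3: LTBP3 had 11.39 CPM in knockdown 2 and LTBP4 171.6 CPM in knockdown 1, against 11.34 and 170.5 CPM in the control. Per length of transcript, both lay below the UMUC3 control in both knockdown libraries, whereas LTBP1 and TGFB1 stayed above their controls. Since these contrasts were in view when the members were chosen, nothing is read from the counts. In these bulk samples a change in the share of cells that make an mRNA and a change in the amount per cell cannot be told apart.

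**Figure D1:**
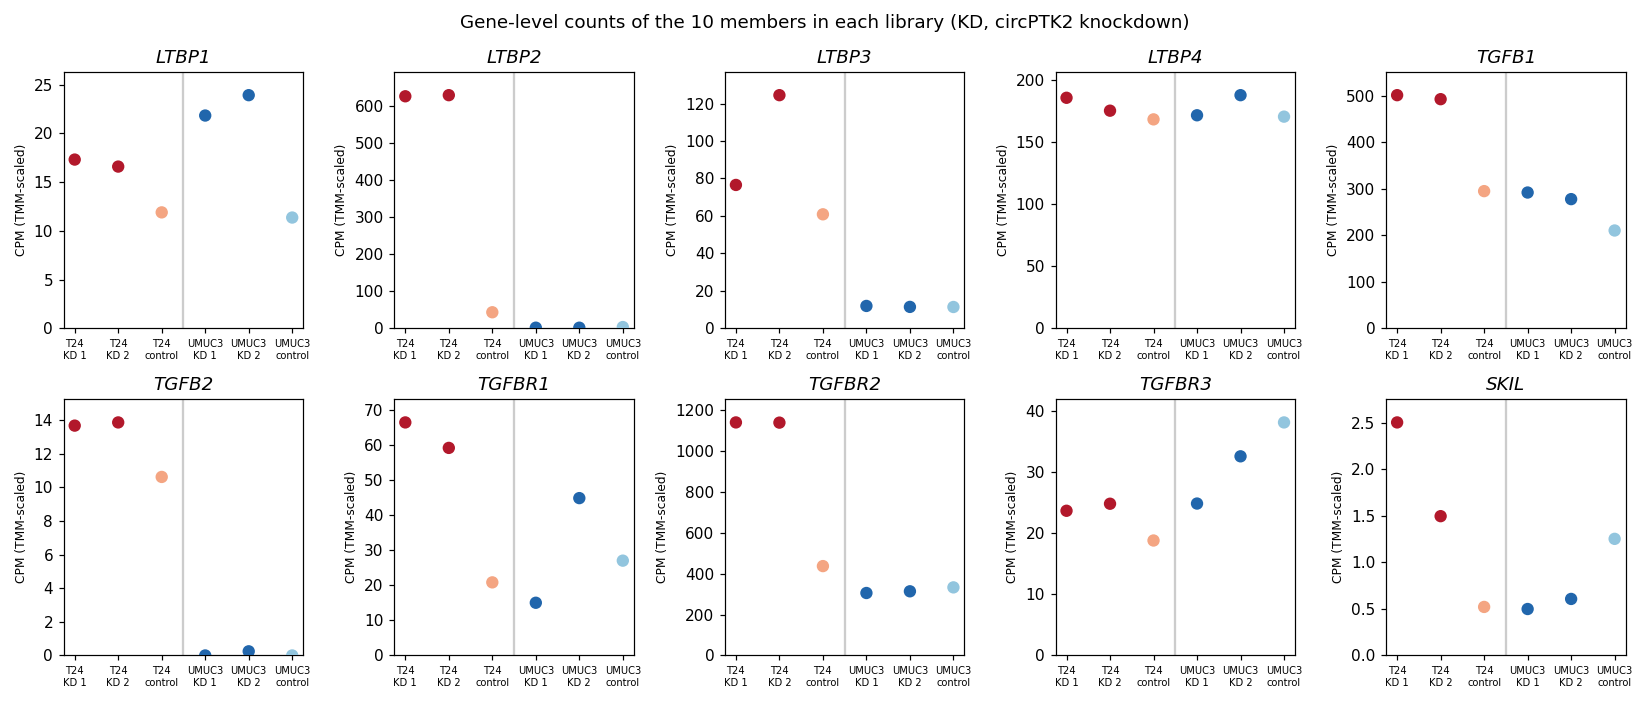
Level of each member in the 6 libraries, in CPM scaled with TMM factors (vertical axis from 0, 1 panel per gene), with T24 libraries in red tones and UMUC3 libraries in blue tones, and controls in the lighter tone. LTBP2 stands at 626.6 and 629.6 CPM in T24 knockdown libraries and at 43.1 CPM in the T24 control, and TGFB2 is at or near 0 in every UMUC3 library.

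**Figure D2:**
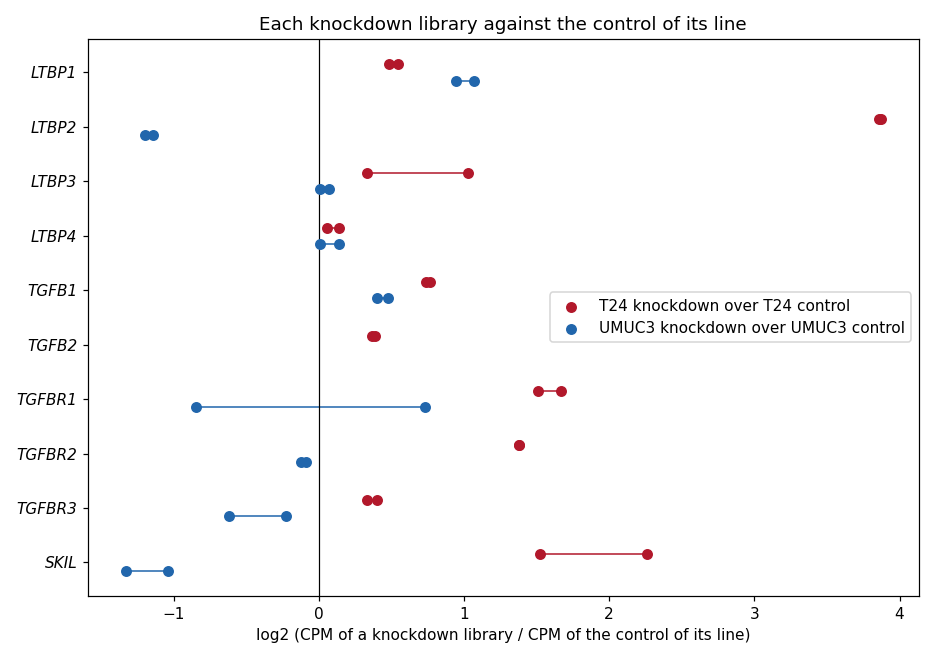
Log2 ratio of each knockdown library to the control of its line (horizontal axis, log2 scale), with T24 in red and UMUC3 in blue and a line joining the knockdown libraries of a line. TGFB2 has no UMUC3 points because the UMUC3 control is at 0, and the UMUC3 points of TGFBR1 lie on opposite sides of the control.

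Among the latent binding proteins, LTBP2, a matrix glycoprotein associated with fibrillin microfibrils, had 626.6 and 629.6 CPM in the T24 knockdown libraries, against 43.1 CPM in the T24 control. The UMUC3 knockdown libraries had 1.43 and 1.36 CPM, against 3.13 CPM in the UMUC3 control. The knockdown libraries thus lay above the control in T24 and below it in UMUC3, with hardly any spread within a pair. The log2 fold change was 3.87 ± 0.10 (SE) in T24 and -1.17 ± 0.08 in UMUC3, and the difference between the lines was 5.03 ± 0.13.

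The gene sum of LTBP2 joined different kinds of transcripts. Coding transcripts that span the gene (LTBP2-201 and LTBP2-205) had 36918 and 37256 counts in the T24 knockdown libraries, against 1075 in the T24 control, which is 34.3-fold and 34.6-fold on the CPM scale. LTBP2-202, annotated as a target of nonsense-mediated decay, had 210 and 71 counts in the knockdown libraries, against 1427 in the control, where it made up 55.7% of the gene's counts. The coding transcripts and the decay form therefore differed in opposite directions between knockdown and control. LTBP2-205, whose annotated start lies downstream of that of LTBP2-201, had 12308 counts in T24 knockdown 1 and 0 in the other 5 libraries.

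In UMUC3 these coding transcripts of LTBP2 had 0 counts in all 3 libraries. What UMUC3 had was the retained-intron transcript LTBP2-203, of 863 bases, with 63 and 44 counts in the knockdown libraries, against 90 in the control, and the decay form with 17 and 39 counts, against 66. LTBP2-204, a short coding transcript of 699 bases that starts inside the gene, had 0 counts in both UMUC3 knockdown libraries, against 19 (10.9%) in the UMUC3 control. A count of 0 allows up to 3 counts for counting error alone. As the authors assigned the reads, the coding transcripts that span the gene thus stood at least 337-fold higher in the T24 control than in the UMUC3 control. That bound does not cover error in the assignment. The decay form also spans the gene and had 1427 counts in the T24 control, against 66 in the UMUC3 control. The gene sum was 13.7-fold higher in the T24 control than in the UMUC3 control. LTBP2 lies on chromosome 14 from 74498170 to 74612378 on the minus strand (GRCh38, GENCODE 29), and 207 of its exon bases are shared with the long noncoding gene AC013451.1 on the opposite strand, which had 4 to 32 counts. The transcript shift of LTBP2 was 0.576 in T24 and 0.273 in UMUC3.

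LTBP1, which tethers latent TGF-beta to the matrix, had 17.3 and 16.6 CPM in T24 knockdown libraries, against 11.9 CPM in the control. The UMUC3 knockdown libraries had 21.8 and 23.9 CPM, against 11.4 CPM in the UMUC3 control. All 4 knockdown libraries lay above both controls, and the controls of the lines lay close together. The log2 fold change was 0.51 ± 0.19 (SE) in T24, 1.01 ± 0.20 in UMUC3 and 0.75 ± 0.20 over both lines.

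The counts of LTBP1 divided between a long form, which starts at 32946972 on chromosome 2, and short forms that start in the interval from 33134597 to 33134657. The long form, LTBP1-203, had 10.7 and 4.73 CPM in T24 knockdown libraries, against 5.67 CPM in the control, and 13.8 and 5.14 CPM in UMUC3 knockdown libraries, against 10.1 CPM in the control. It thus lay above the control in knockdown 1 and below it in knockdown 2 of each line, by the siRNA numbers of the titles. The short forms had 6.41 and 11.5 CPM in T24 knockdown libraries, against 6.15 CPM in the control, and 7.46 and 17.8 CPM in UMUC3 knockdown libraries, against 1.07 CPM in the control. Outside T24 knockdown 1 and the UMUC3 control, most of the short-form counts lay in LTBP1-204. That transcript held 11.5% and 65.1% of the gene in T24 knockdown libraries, against 28.0% in the control. In UMUC3 it held 32.7% and 72.8% in knockdown libraries, against 0% in the control. In T24 knockdown 1, LTBP1-204, LTBP1-207 and LTBP1-202 had 118, 123 and 140 counts, and in the UMUC3 control LTBP1-202 had 54. The similar short forms LTBP1-207 and LTBP1-202 held 23.7% at most, LTBP1-207 in the T24 control, and 13.6% at most, LTBP1-202 in T24 knockdown 1. The UMUC3 control had 60 counts of short forms, and the ratio of the knockdown libraries to it was 6.94 and 16.5. The transcript shift of LTBP1 was 0.552 in T24 and 0.771 in UMUC3, well above the median over genes, and with the long form alone the log2 fold change of LTBP1 in UMUC3 was -0.09.

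LTBP3, a binding protein known for its part in skeletal and dental development, had 76.5 and 125 CPM in T24 knockdown libraries, against 60.9 CPM in the control. In UMUC3 it had 11.9 and 11.4 CPM, against 11.3 CPM in the control. The T24 knockdown libraries differed from each other by more than the lower of them differed from the control, and the UMUC3 libraries were nearly level. The log2 fold change was 0.72 ± 0.34 in T24 and 0.04 ± 0.34 in UMUC3 (SE).

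Transcripts of LTBP3 that reach its upstream starts and are coding had 26.8 and 28.7 CPM in T24 knockdown libraries, against 12.5 CPM in the control. In these the knockdown libraries of T24 lay close together at 2.15-fold and 2.30-fold of the control, and most of the counts that set them apart in the gene sum lay in LTBP3-221 and LTBP3-212, which start inside the gene. LTBP3-221 had 830 and 2883 counts in T24 knockdown libraries, against 823 in the control. The coding transcripts with upstream starts had 2.6 and 0.92 CPM in UMUC3 knockdown libraries, against 2.87 CPM in the UMUC3 control. Unlike the gene sum, they thus lay below the UMUC3 control in both knockdown libraries, at 0.909-fold and 0.321-fold of it. In UMUC3 more of the gene's counts lay in short coding fragments and a retained intron, such as LTBP3-220 of 748 bases with 32.4% and 26.7% in knockdown libraries, against 55.0% in the control. The retained intron LTBP3-214 held 17.1% and 43.9% in UMUC3 knockdown libraries, against 1.58% in the control, and the coding fragment LTBP3-213, of 575 bases, 18.0% and 16.3%, against 13.1%. Of the longer transcripts, LTBP3-201 held 32.5% and 13.0% in T24 knockdown libraries, against 5.59% in the control, and 0% in both UMUC3 knockdown libraries, against 22.6% in the control. LTBP3-202 reached 21.6% in UMUC3 knockdown 1, and the decay form LTBP3-210 and the coding LTBP3-218 reached 15.9% and 13.7% in the T24 control.

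LTBP4, a binding protein of elastic fibres, had the smallest fold change of the members in T24. Its level was 186 and 175 CPM in T24 knockdown libraries, against 168 CPM in the control, and 172 and 188 CPM in UMUC3 knockdown libraries, against 170.5 CPM in the control. The libraries of both lines overlapped, and the log2 fold change was 0.10 ± 0.11 in T24 and 0.08 ± 0.11 in UMUC3 (SE). Without TMM factors and with all counts as the library size, a setting chosen after seeing the data, LTBP4 was no longer above the control in both T24 knockdown libraries, and 9 of 10 members were.

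One library stood apart in the transcripts of LTBP4. LTBP4-205, which starts at 40601371 on chromosome 19, held 5745 counts in T24 knockdown 2, or 55.2% of the gene, and at most 12 counts in any other library. LTBP4-203, which starts 5′ of it at 40597235, held 29.9% there and 81.6 to 89.4% in the other 5 libraries. The sum of the gene was level all the same, and the assignment of reads to these transcripts was the authors'.

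The transcript shift was 0.605 in T24 and 0.112 in UMUC3 for LTBP4, and 0.370 and 0.550 for LTBP3. LTBP3 lies on chromosome 11 from 65538805 to 65558930 on the minus strand, and LTBP4 on chromosome 19 from 40592883 to 40629818 on the plus strand (GRCh38, GENCODE 29).

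**Figure D3:**
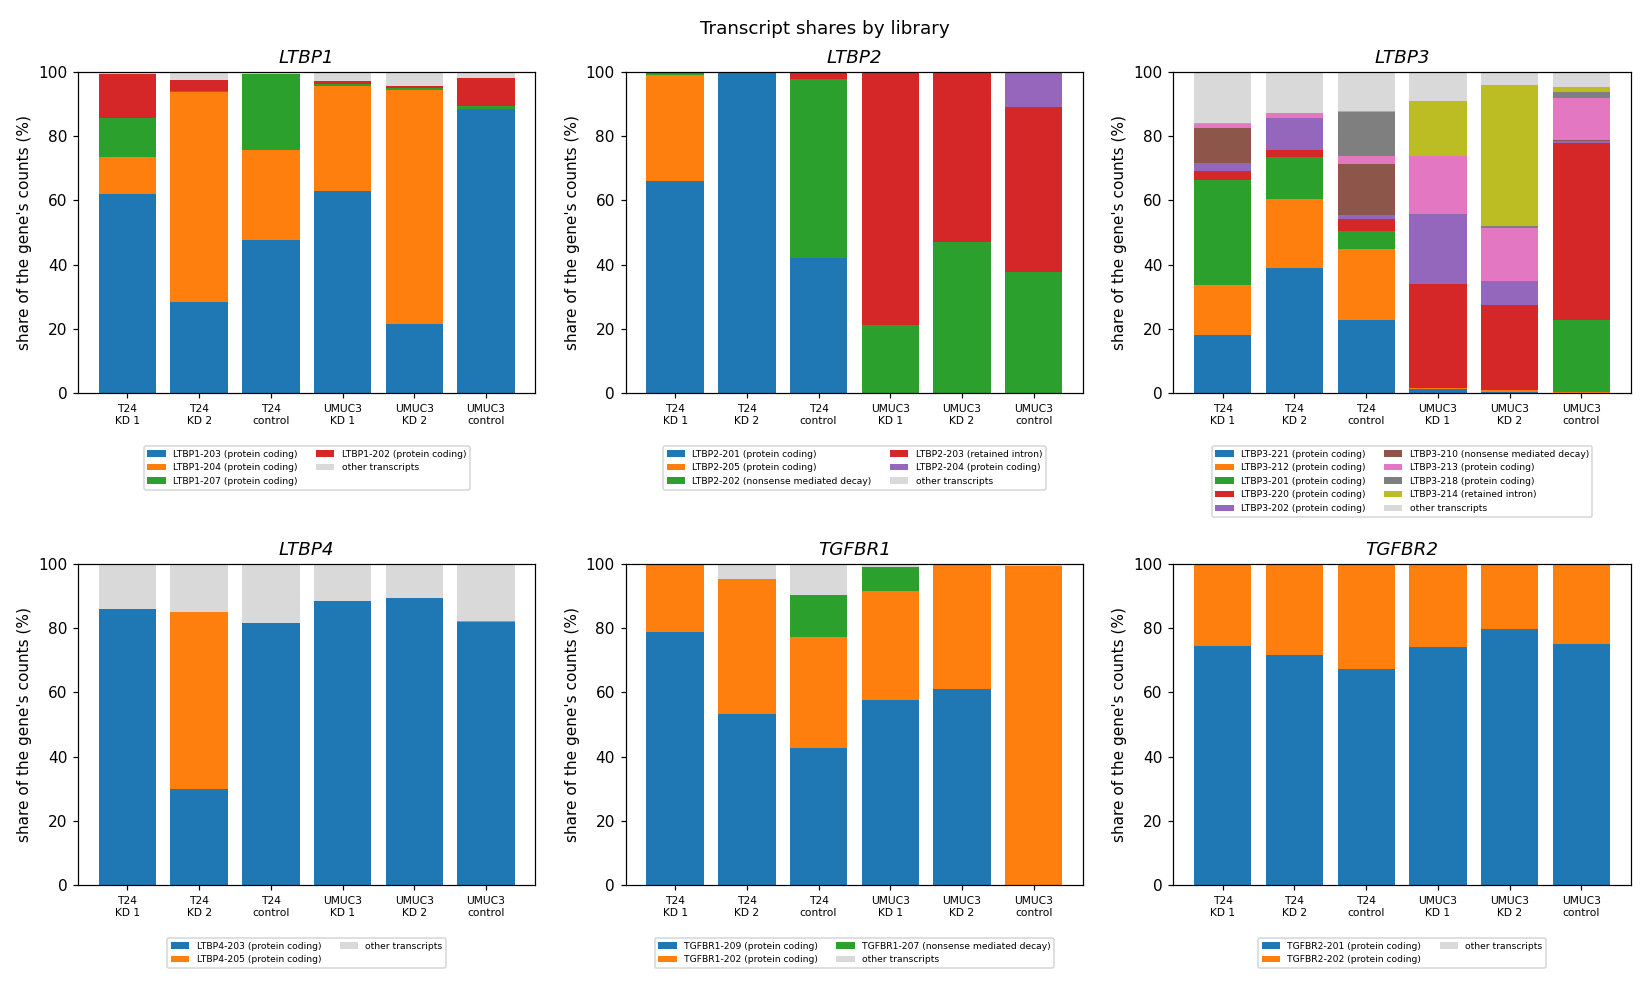
Share of a gene's counts held by each transcript (vertical axis, percent, stacked to 100) in the 6 libraries, for 6 members. Every transcript with at least 10% of the gene in any library has its own colour, and the others are grey. LTBP4-205 fills 55.2% of T24 knockdown 2, TGFBR1-202 fills 99.4% of the UMUC3 control, and the TGFBR2 forms keep similar shares throughout.

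Levels of different genes can be compared only per length of transcript, and on that scale (CPM of named counts per kb) the 4 binding proteins together stood at 185 and 187 in T24 knockdown libraries, against 97.8 in the T24 control. In UMUC3 the sum was 70.5 and 76.4 in knockdown libraries, against 82.5 in the control. LTBP2 made up 46.7% and 39.2% of the sum in T24 knockdown libraries, against 7.21% in the T24 control. This scale depends on which transcript the reads were assigned to. The gene's counts were nearly equal in T24 knockdown 1 and 2 (37258 and 37413). In knockdown 1, however, 12308 of them lay in LTBP2-205, of 5614 bases, against 8567 bases of LTBP2-201. In UMUC3, counts in short fragments such as LTBP3-220, of 748 bases, weigh more in the sum. LTBP4 was the main form in the T24 control, with 60.1%, and in UMUC3, with 74.6% and 77.0% in knockdown libraries, against 79.1% in the control. LTBP1 was the least abundant of the 4 in all 3 T24 libraries, at 1.65 and 1.83% in knockdown libraries, against 2.26% in the control.

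**Figure D4:**
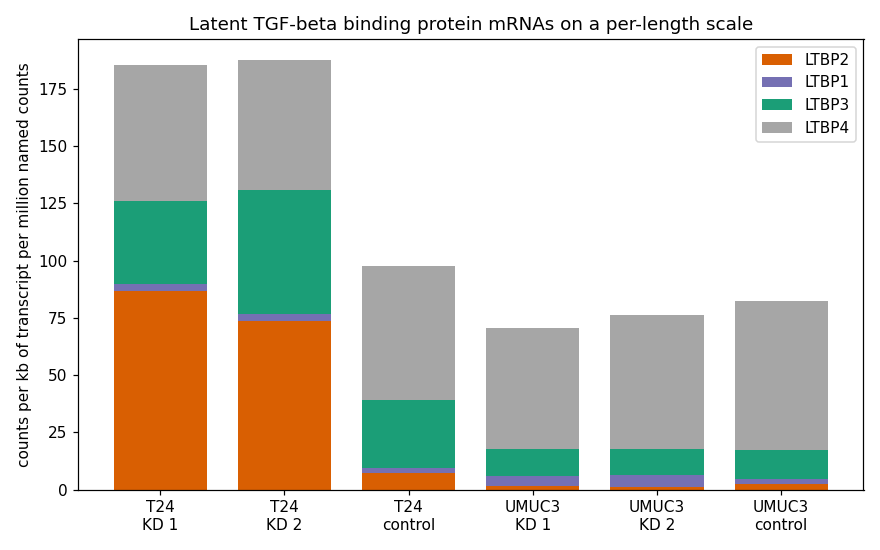
Stacked levels of the 4 latent TGF-beta binding protein genes in each library (vertical axis, CPM of named counts per kb of transcript). LTBP2 is 86.7 and 73.5 in T24 knockdown libraries and 7.05 in the T24 control, whereas LTBP4 stays between 52.6 and 65.3 in all 6 libraries.

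Of the ligands, TGFB1, the form made by most cell types, had 501 and 492 CPM in T24 knockdown libraries, against 295 CPM in the control. In UMUC3 it had 292 and 277 CPM in knockdown libraries, against 210 CPM in the control. The knockdown libraries lay above the control in both lines, and the UMUC3 knockdown libraries reached only about the level of the T24 control. The log2 fold change was 0.75 ± 0.08 in T24, 0.44 ± 0.08 in UMUC3 and 0.59 ± 0.11 over both lines (SE), and the difference between the lines was 0.32 ± 0.11. Nearly all counts of TGFB1, 99.3 to 99.6%, lay in the single transcript TGFB1-201, and its transcript shift was 0.00316 in T24 and 0.00295 in UMUC3. TGFB1 lies on chromosome 19 on the minus strand and shares 215 exon bases with HNRNPUL1 on the opposite strand, which had 27513 to 37076 counts. Whether reads were counted by strand is unknown here, so reads of the shared bases cannot be told apart.

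TGFB2, a ligand that depends on betaglycan for binding to TGFBR2, was found in T24 and was nearly absent from UMUC3. It had 812 and 823 counts in T24 knockdown libraries, against 630 in the control, which are 13.7 and 13.9 CPM, against 10.6 CPM. In UMUC3 it had 0 and 15 counts in knockdown libraries, against 0 in the control. The knockdown libraries of T24 lay close together and above the control, with a log2 fold change of 0.37 ± 1.30 (SE), an error far larger than their spread. The UMUC3 pair, with 0 and 15 counts, entered the same estimate of spread. TGFB2 stood at least 197-fold higher in the T24 control than in the UMUC3 control and at least 255-fold higher in T24 knockdown 1 than in UMUC3 knockdown 1, taking 3 counts as the limit that 0 allows. The other pair had 13.85 CPM in T24 knockdown 2 and 0.2465 CPM in UMUC3 knockdown 2, a smaller distance. The 2 coding transcripts of TGFB2 listed in the table, TGFB2-201 and TGFB2-202, differ by 1 exon, and TGFB2-201, with 8 exons, held 22.9% of the counts in T24 knockdown 1, 1.34% in T24 knockdown 2 and 0 in the T24 control. The main transcript TGFB2-202 had 621 and 811 counts in T24 knockdown libraries, against 627 in the control, so in knockdown 1 it was not above the control. On the same strand, 1371 exon bases are shared with TGFB2-OT1, which had 0 to 23 counts.

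Per length, TGFB1 exceeded TGFB2 by 62.9-fold and 64.6-fold in T24 knockdown libraries, against 48.9-fold in the T24 control.

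The type II receptor TGFBR2, which binds the ligand first, had 1139 and 1138 CPM in T24 knockdown libraries, against 437 CPM in the T24 control. Its level in UMUC3 was 305 and 314 CPM in knockdown libraries, against 333 CPM in the control. The T24 knockdown libraries were level at 2.61-fold of the control, and the UMUC3 knockdown libraries lay slightly below theirs, at 0.917 and 0.942 of it. The log2 fold change was 1.38 ± 0.07 in T24 and -0.10 ± 0.06 in UMUC3, with a difference between the lines of 1.49 ± 0.09 (SE). Both transcripts were higher in T24 knockdown libraries: TGFBR2-201 had 848 and 814 CPM, against 293 CPM in the control, and TGFBR2-202, which has 1 exon more, had 290 and 324 CPM, against 143 CPM. The transcript shift was small, at 0.0731 in T24 and 0.0547 in UMUC3.

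The type I receptor TGFBR1, the kinase that phosphorylates SMAD2 and SMAD3, had 66.4 and 59.2 CPM in T24 knockdown libraries, against 20.8 CPM in the control. Its level in UMUC3 was 15.02 and 44.8 CPM in knockdown libraries, against 27.0 CPM in the control. The T24 knockdown libraries lay above the control, whereas the UMUC3 knockdown libraries lay on opposite sides of theirs. The log2 fold change was 1.59 ± 0.76 in T24 and 0.15 ± 0.70 in UMUC3 (SE).

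The transcripts of TGFBR1 were unevenly assigned as well. TGFBR1-209 held 57.6% and 61.2% of the counts in UMUC3 knockdown libraries and none in the UMUC3 control, where TGFBR1-202 held 99.4%. In T24 both forms were found in every library, with TGFBR1-209 at 52.4 and 31.5 CPM in knockdown libraries, against 8.91 CPM in the control, and TGFBR1-202 at 14.0 and 24.9 CPM, against 7.19 CPM. Each form was thus above the T24 control in both knockdown libraries. The decay form TGFBR1-207 held 0% in both T24 knockdown libraries, against 13.0% in the T24 control. The transcript shift was 0.361 in T24 and 0.656 in UMUC3. Both forms have 9 exons, and the table lists 5 of the gene's 10 annotated transcripts.

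The coreceptor TGFBR3 had 23.7 and 24.8 CPM in T24 knockdown libraries, against 18.8 CPM in the control. In UMUC3 it had 24.8 and 32.6 CPM in knockdown libraries, against 38.1 CPM in the control. The order of knockdown and control was opposite in the 2 lines, and the log2 fold change was 0.37 ± 0.24 in T24 and -0.41 ± 0.23 in UMUC3 (SE). Its main transcript, TGFBR3-201, held 49.2 to 60.0% of the counts in every library. TGFBR3-207 held 19.1% and 24.7% in T24 knockdown libraries, against 38.4% in the control, and TGFBR3-204 held 20% and 24.6%, against 8.69% in the control, while in UMUC3 they held 21.9 to 29.1% and 15.9 to 19.2%. Of TGFBR3 the transcript shift was 0.20 in T24 and 0.0904 in UMUC3. On GRCh38 in GENCODE 29, TGFBR3 lies on chromosome 1 from 91680343 to 91906335 on the minus strand, TGFBR1 on chromosome 9 from 99104038 to 99154192 and TGFBR2 on chromosome 3 from 30606502 to 30694142, both on the plus strand.

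SKIL had few counts, 149 and 89 in T24 knockdown libraries, against 31 in the control, and 28 and 37 in UMUC3 knockdown libraries, against 70 in the control. On the CPM scale, T24 knockdown libraries had 2.51 and 1.498, against 0.522 in the T24 control, and UMUC3 knockdown libraries had 0.499 and 0.608, against 1.25 in the UMUC3 control. The knockdown libraries lay above the control in T24 and below it in UMUC3, with log2 fold changes of 1.94 ± 0.58 and -1.18 ± 0.52 (SE). Only 6 of the 10 annotated transcripts of SKIL, and 2 of its 5 coding ones, carry the gene's symbol in the table, so this level comes from part of its transcripts. The coding transcript SKIL-202 had 55 and 31 counts in T24 knockdown libraries and 0 in the T24 control and in UMUC3. The other coding transcript, SKIL-204, held 3.36% and 8.99% of the counts in T24 knockdown libraries, against 32.3% in the control, and 57.1% and 40.5% in UMUC3 knockdown libraries, against 28.6% in the control. The noncoding SKIL-210 held 43.6% and 27.0% in T24 knockdown libraries, against 25.8% in the control, and SKIL-208, SKIL-209 and SKIL-205 held up to 43.2%, 17.1% and 19.4% in a library. With totals of 28 to 149 counts these shares rest on few reads.

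Per length, TGFBR2 was the most abundant of the 10 members in T24 knockdown libraries, at 241 in each, against 95.8 in the T24 control, where TGFB1, at 111.5, came first. In UMUC3 TGFB1 led with 108 and 105 in knockdown libraries, against 79.8 in the control, and TGFBR2 followed with 66.2 and 68.8, against 73.1. In the UMUC3 control TGFB1, TGFBR2 and LTBP4 (65.3) thus lay within a narrow range. TGFBR2 exceeded TGFBR1 by 22.1-fold and 25.6-fold in T24 knockdown libraries, against 20.6-fold in the T24 control, and by 21.0-fold and 9.31-fold in UMUC3 knockdown libraries, against 16.4-fold in the UMUC3 control. The UMUC3 knockdown libraries lay on opposite sides of their control in this ratio. TGFBR2 exceeded TGFBR3 by 46.4-fold and 40.3-fold in T24 knockdown libraries, against 21.9-fold in the T24 control, and by 11.6-fold and 9.73-fold in UMUC3 knockdown libraries, against 8.5-fold in the UMUC3 control.

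Over both lines together the estimates of LTBP2, 0.70 ± 1.32, and of TGFBR2, 0.57 ± 0.35 (SE), joined opposite values. Without the T24 control the knockdown term came from UMUC3 alone. The estimates of -1.16 for LTBP2 and -0.10 for TGFBR2 in that setting thus reflect UMUC3 only.

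Between the lines, 5 members were higher in all 3 T24 libraries than in all 3 UMUC3 libraries (LTBP2, LTBP3, TGFB1, TGFB2 and TGFBR2), against 27.2% of all genes, and TGFBR3 was lower in all 3, against 25.1%. Of these, TGFB2 passed the count filter through its T24 counts alone. The log2 difference between T24 and UMUC3 was 7.42 ± 1.41 for LTBP2, 2.88 ± 0.27 for LTBP3, 1.39 ± 0.33 for TGFBR2 and 0.70 ± 0.10 for TGFB1 (SE). Between the control libraries alone, the difference was 3.78 for LTBP2, 2.42 for LTBP3 and 0.39 for TGFBR2, each smaller than the difference over all libraries. LTBP4 differed by -0.00 ± 0.09 between the lines and LTBP1 by -0.27 ± 0.18. TGFBR1 (0.60 ± 0.52) and SKIL (0.89 ± 0.80) had positive differences over all libraries, but between the controls alone their differences were -0.38 and -1.26.

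The genes whose pattern over the 6 libraries was most like that of a member were sought for the 3 members with the widest range of log2 CPM, among 11130 tested genes, as the root mean square difference between centred log2 values. LTBP2 (range 8.40) was closest to HAS2, a hyaluronan synthase, at 0.671, to the cytokine receptor gene IL7R at 0.843 and to RELN, an extracellular glycoprotein, at 0.845. HAS2 had 246 and 251 CPM in T24 knockdown libraries, against 17.8 CPM in the T24 control. Its UMUC3 level was 1.18 and 1.12 CPM with knockdown, against 0.358 CPM in the UMUC3 control. HAS2 shared the high T24 knockdown level of LTBP2 but lay above its control in UMUC3. TGFB2 (range 4.84) was closest to LXN (0.107), TXNIP (0.114) and MCC (0.127), and LTBP3 (range 3.40) to FAM107B (0.114), CLEC2B (0.147) and CTSC (0.223).

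The rest of the pathway was followed in a list of 51 genes that are no members, of which 48 were tested. The list was drawn up with earlier results of these data known, so its counts are a description. In edgeR at an adjusted p of 0.05, 0 of them were called in T24, where 0.00965% of all genes were called, 0 in UMUC3 (0.0627% of all genes), 0 over both lines (0.00965%) and 0 for the difference between the lines (0.0241%). At an unadjusted p under 0.05 in edgeR there were 22 in T24 (12.2% of all genes), 19 in UMUC3 (16.9%), 18 over both lines (9.55%) and 15 for the difference (14.3%). DESeq2 called 16 in T24 (5.91% of all genes with an adjusted p), 14 in UMUC3 (10.4%), 15 over both lines (6.21%) and 10 for the difference (7.04%). Over all genes edgeR called 2 higher and 0 lower in T24 and 10 higher and 3 lower in UMUC3. These counts hung on the fit: over all settings tried, between 0 and 963 genes were called in T24 and between 0 and 1700 in UMUC3. The median log2 fold change of the list was 0.31 in T24 and 0.04 in UMUC3.

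Among the genes that hold or release the latent complex, fibrillin 1 (FBN1), to whose microfibrils the binding proteins attach, had 622 and 626 CPM in T24 knockdown libraries, against 237 CPM in the T24 control. Its log2 fold change of 1.39 ± 0.08 (SE) did not pass over all genes in edgeR (adjusted p = 0.0736), with both knockdown libraries above the control. In UMUC3 FBN1 had 1.77 and 1.84 CPM in knockdown libraries, against 0.824 CPM in the control. Over both lines its log2 fold change was 1.27 ± 0.11 with an edgeR adjusted p of 0.123, and all 4 knockdown libraries lay above their control. ITGAV, the alpha chain of integrins that release TGF-beta, had a difference between the lines of 1.04 ± 0.15 (edgeR adjusted p = 0.166), with 304 and 297 CPM in T24 knockdown libraries, against 173 CPM in the control, and 116 and 129 CPM in UMUC3 knockdown libraries, against 145 CPM.

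Among the inhibitors, SKI, the close relative of SKIL, had 160 and 171 CPM in UMUC3 knockdown libraries, against 52.7 CPM in the UMUC3 control, a log2 fold change of 1.65 ± 0.10 (SE; edgeR adjusted p = 0.0565). In T24 it had 262 and 267 CPM, against 153 CPM in the control. SKI thus lay above the control in all 4 knockdown libraries, whereas SKIL did so in T24 alone. PMEPA1, which is induced by TGF-beta and restrains the pathway, had a log2 fold change of 0.96 ± 0.15 over both lines (edgeR adjusted p = 0.208), with 251 and 258 CPM in T24 knockdown libraries, against 114 CPM in the control, and 34.6 and 29.2 CPM in UMUC3 knockdown libraries, against 18.8 CPM in the control.

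Target genes of the pathway did not share a direction. TGFBI, a matrix protein named for its induction by TGF-beta, had 35.8 and 37.2 CPM in T24 knockdown libraries, against 10.6 CPM in the control, a log2 fold change of 1.78 ± 0.14 (edgeR adjusted p = 0.0997). CTGF had 447 and 472 CPM in T24 knockdown libraries, against 885 CPM in the control, and 120 and 145 CPM in UMUC3 knockdown libraries, against 299 CPM in the control. Its log2 fold change over both lines was -1.06 ± 0.11 (edgeR adjusted p = 0.127), below the control in all 4 knockdown libraries.

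The metalloprotease gene ADAM19 had 140 and 128 CPM in UMUC3 knockdown libraries, against 37.5 CPM in the control, a log2 fold change of 1.84 ± 0.10 (SE; edgeR adjusted p = 0.053). CDKN1A, the cell cycle inhibitor p21, had 95.6 and 80.8 CPM in UMUC3 knockdown libraries, against 444 CPM in the control, a log2 fold change of -2.33 ± 0.15 (edgeR adjusted p = 0.0607). Its difference between the lines was 1.56 ± 0.22 with an edgeR adjusted p of 0.166, and T24 had 57.0 and 50.5 CPM in knockdown libraries, against 91.7 CPM in the control. ADAM19 lay above and CDKN1A below the control in all 4 knockdown libraries.

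**Figure D5:**
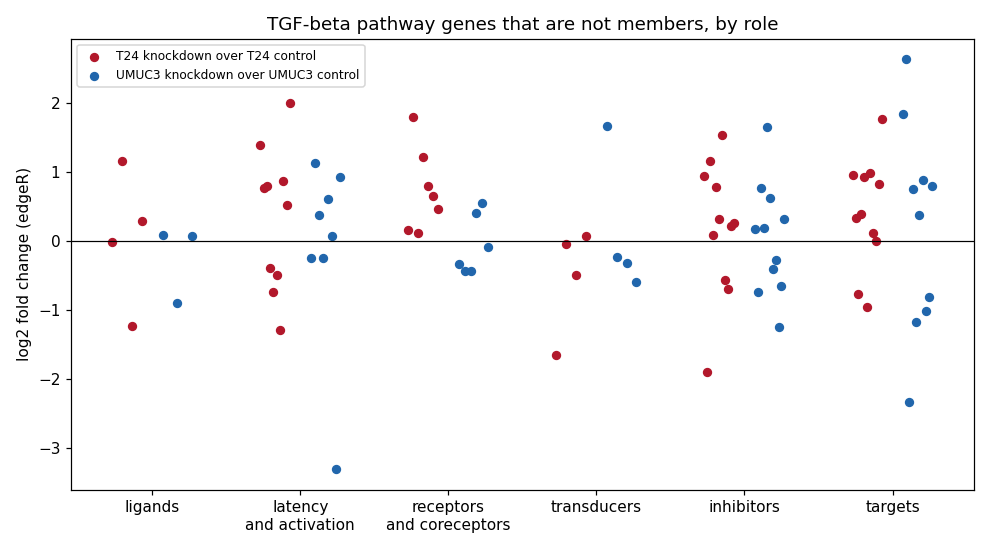
Log2 fold change of pathway genes that are no members (vertical axis, edgeR estimate, log2 scale), by role, with T24 knockdown over control in red and UMUC3 knockdown over control in blue. Each point is a gene, spread sideways for legibility, and genes with a library at 0 in a line are left out for that line. All 7 receptors and coreceptors lie above 0 in T24, where 49.2% of all tested genes had a positive estimate. In UMUC3, 3 of 7 had a positive estimate, beside 49.3% of all genes. One of these, ACVRL1, is not drawn for UMUC3, where it did not exceed 0.0714 CPM, and in T24 it did not exceed 0.269 CPM.

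Between the lines, 26 of the 48 pathway genes passed in edgeR, 19 higher and 7 lower in T24, a share of 54.2% beside the 35.3% over all genes. Since the list was drawn up with earlier results of these data known, nothing is read from that share. Over all 20721 tested genes, 3890 were higher and 3420 lower in T24. In the latency and activation group 7 of 11 were higher in T24 and none lower. Of these, THBS1, whose product activates latent TGF-beta, had 2128 and 2206 CPM in T24 knockdown libraries with 541 CPM in the T24 control, and only 1.98 and 1.298 CPM in UMUC3 knockdown libraries and 0.860 CPM in the UMUC3 control (log2 difference 10.03 ± 0.39, edgeR adjusted p = 0.000345). FBN1 (8.35 ± 0.13, adjusted p = 0.000188 in edgeR), FURIN, which cleaves the propeptide (2.34 ± 0.12, adjusted p = 0.000588) and ITGAV (0.95 ± 0.24, adjusted p = 0.0321) were likewise higher in all 3 T24 libraries than in all 3 UMUC3 libraries. ITGB8, which pairs with ITGAV, had 89.4 and 123 CPM in T24 knockdown libraries with 149 CPM in the T24 control (edgeR adjusted p = 0.00107), and did not exceed 0.0657 CPM in UMUC3. LRRC32 and NRROS, which display latent TGF-beta on cell surfaces, had no count in UMUC3, and in the T24 control they were at least 22.6-fold and 30.4-fold higher than in the UMUC3 control. Like ITGB8, they passed the count filter through T24 libraries alone, so these genes could be called only as higher in T24.

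Among the other ligands, INHBA, a subunit of activin, was higher in T24 (8.59 ± 1.11, edgeR adjusted p = 0.00475), with 75.5 and 76.1 CPM in T24 knockdown libraries and 34.0 CPM in the T24 control, while no UMUC3 library exceeded 0.251 CPM. INHBB was higher as well (0.95 ± 0.26, edgeR adjusted p = 0.0414), though its libraries overlapped between the lines, and TGFB3 was lower in T24 (-1.46 ± 0.28, adjusted p = 0.015), at 3.13 and 1.97 CPM in T24 knockdown libraries with 2.07 CPM in the T24 control, whereas it was at 6.17 and 7.15 CPM in UMUC3 knockdown libraries and 6.34 CPM in the UMUC3 control. TGFB3 thus had the opposite line difference to TGFB1 and TGFB2. Of the other receptors, ENG, ACVR2A and BMPR2 were higher and ACVR1 lower in T24, with log2 differences of 0.99, 1.58, 1.51 and -0.55 (edgeR adjusted p = 0.00717, 0.00765, 0.00134 and 0.0478), and in each of these 4 genes the libraries of the lines did not overlap.

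Of the 4 transducers, SMAD3 was lower in T24 (-0.46 ± 0.08, edgeR adjusted p = 0.0122), in all 3 libraries, and the others did not pass. Of the inhibitors, SKI, SMURF2 and PMEPA1 were higher (0.96, 0.62 and 2.87, edgeR adjusted p = 0.0192, 0.0412 and 0.000534) and SMAD6 lower (-1.38, adjusted p = 0.00241). The libraries of the lines overlapped for SKI and SMURF2 and did not for PMEPA1 and SMAD6. Of the targets, FN1, CTGF, ADAM19 and CDKN2B were higher and TGFBI, JUNB and CDKN1A lower in edgeR, with overlap between the lines in CDKN1A alone among the 7. Fibronectin (FN1), on which LTBP1 is laid down, had 3911 and 4093 CPM in T24 knockdown libraries with 2013 CPM in the T24 control, and only 5.51 and 7.84 CPM in UMUC3 knockdown libraries and 5.14 CPM in the UMUC3 control. CDKN2B had no count in UMUC3 and was at least 502-fold higher in the T24 control. It passed the count filter through T24 libraries alone, so it could be called only as higher in T24.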

How the data were processed

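RNA sequencing gave 6 libraries. The authors deposited raw read counts per transcript, without normalisation, per the file headers. Build hg38 and the tools StringTie 1.3.3b, HISAT2 2.1.0 and FastQC 0.11.5 are named, per the submitters' processing notes, with no role or order. The strand setting and the RNA selection are not given in the sources used here. Transcripts without a gene held 14.86 to 16.1% of a library's counts and entered neither library sizes nor tests. The remaining 121915 were summed to genes, and 121869 matched GENCODE release 29 by transcript ID. Assignment of reads to transcripts was the authors', so transcript shares carry that uncertainty.

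Genes reaching 10 counts in 2 or more libraries and 30 counts in all were fitted with edgeR 4.0.16 in R 4.3.3 (TMM, robust quasi-likelihood F test, Benjamini-Hochberg adjustment over 20721 genes at 0.05). The difference between lines and each line were fitted in 4 groups (2 residual degrees of freedom), where the lone control is assumed to vary like the knockdown pairs. Both lines together, and T24 against UMUC3, used an additive model of line and knockdown (3 residual). SE is the log2 fold change over the square root of F. CPM is scaled to the counts of tested genes with TMM factors. The per-length scale divides each transcript's counts by its length and by named counts, without TMM. The fit was tested on simulated data, which does not show that a gene left uncalled is unchanged.

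The members and lists were chosen with earlier results of these data known. Named are all members, the pathway genes past adjusted p 0.05 or the 3 with the smallest p in each comparison, the 3 genes most like a member, and transcripts with at least 10% of a member's counts. A pathway gene that this rule names is not reported here. Likeness used log2(CPM + 0.5) and genes with a mean of at least 5 CPM. A count of 0 was read as up to 3 counts, for counting error only. Over all tested genes, same-numbered knockdown libraries did not deviate together (correlation -0.00138 by the titles). Numbering by the column names only turns the sign (0.00138) and is no separate check. The main fits therefore did not pair samples by number, and effects of an siRNA on single genes were not tested. Alternatives were DESeq2 1.42.0, its size factors, no filter, all counts as library size, a block by siRNA number, the leading transcript alone, other line contrasts, leaving out each library and, added after seeing the data, fits without the robust options.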

Additional observations from a re-analysis of the deposited data

Results flagged for a closer look

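In 4 members the log2 fold changes of the lines had opposite signs, with every T24 knockdown library above its control and every UMUC3 knockdown library below its control, which is why they are listed. For LTBP2 the difference of the log2 fold changes, T24 minus UMUC3, was 5.03. For SKIL the difference was 3.11, for TGFBR2 1.49 and for TGFBR3 0.775. In UMUC3, LTBP2 had only 80 and 83 counts in knockdown libraries, against 175 in the control, with no count in its coding transcripts that span the gene. TGFBR2 differed little in UMUC3 (-0.10 ± 0.06, SE), where its transcript TGFBR2-201 was at 0.907-fold and 1.0-fold of the control. SKIL rested on 28 to 149 counts of part of its transcripts. The members were chosen with these values known, so the differences are a description and no test is read from them.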

How the results depend on the processing

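The counts of calls depended strongly on the method. With DESeq2 the genes called were 963 in T24, 1700 in UMUC3, 987 over both lines and 1120 for the difference, and 16, 14, 15 and 10 pathway genes. Without a filter edgeR called 48 genes in T24, 253 in UMUC3 and 40 for the difference, with 1 (FBN1), 7 and 1 pathway genes. With a replicate block by siRNA number, of the titles or of the column names, 0 genes were called in T24, UMUC3, over both lines and for the difference, and 5184 or 5183 between the lines; the block changed no count of pathway genes by over 1.5 times. Leaving out each library gave 0 to 0 genes in T24, UMUC3 and the difference, 0 to 18 over both lines (16 without the T24 control and 18 without the UMUC3 control) and 4671 to 6600 between the lines, where 4401 were called between control libraries alone. Leaving out a control ended the fit for its line, and the knockdown term over both lines then came from the other line alone. A quasi-likelihood fit without robust, chosen after seeing the data, called 0 genes in UMUC3 and 0 over both lines, and a dispersion estimate without robust, chosen likewise, moved no count of calls. Of 590 alternative fold changes of members, 566 kept their direction. With the leading transcript alone, 7 of 10 members lay above the control in both T24 knockdown libraries, all but LTBP1, LTBP4 and TGFB2. The log2 fold change of LTBP4 in T24 was then -0.38 and that of LTBP2 4.85. The cause of these changes was not tested. With 2 knockdown libraries and 1 control a line, the spread rests on 2 or 3 residual degrees of freedom.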
